A study of Mus musculus with 14 samples.

Results

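The interaction between the cathepsin B inhibitor CA074Me and tumour necrosis factor alpha (TNF) was measured on 8 arrays in 4 groups, out of 14 arrays in 7 groups. It is the TNF response after CA074Me (CA074Me with TNF minus CA074Me unstimulated) minus the TNF response in solvent (DMSO with TNF minus DMSO unstimulated). It was taken within each of the 2 biological replicate numbers, called experiments 1 and 2 here, and averaged. A value above 0 therefore means that TNF moved a gene further upward, or less far downward, after CA074Me than in DMSO. All groups were bone marrow-derived dendritic cells of BALB/c mice, grown for 8 days with recombinant GM-CSF and fed on days 3 and 6. Cells of the CA074Me TNF group received 5 µM CA074Me for 1 h and then TNF at 500 U/mL. The CA074Me unstimulated group received the inhibitor alone, the DMSO TNF group 0.01% DMSO and then TNF, and the DMSO unstimulated group DMSO alone. The remaining 6 arrays hold unstimulated cells with the inhibitor CLIK148 and cells given CpG, with DMSO or with CLIK148. They entered the fit and otherwise only 1 paragraph near the end. The sources used here do not state the age or sex of the mice, any pooling of mice, or how long after the stimulus cells were harvested.

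TNF binds its receptors on the cell surface and sets off, through TRAF and cIAP adaptors and the IkB kinase, the release of NF-kB factors from their IkB inhibitors. NF-kB then raises genes of inflammation and dendritic cell maturation together with its own brakes, among them IkB alpha (Nfkbia) and the ubiquitin-editing enzyme A20 (Tnfaip3). Cathepsin B is a cysteine protease of the lysosome. CA074Me is the methyl ester of the inhibitor CA074, which lets it enter cells, and it is known to act on cathepsin L as well under some conditions, so it is not a genetic test of cathepsin B. Because mRNA was measured and not enzyme activity, the arrays do not show how far either enzyme was blocked.

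Among dendritic cell genes, Itgax, Flt3, Zbtb46, H2-Ab1 and Cd74 were above the overall median of 7.52 log2 on all 8 arrays, and Xcr1, a marker of cross-presenting dendritic cells, was below it on all 8. Of the 12 measured macrophage and monocyte markers 11, and of the 12 granulocyte markers 12, were also above the median on every array, with Lyz2 at 14.71 to 15.32 and S100a8 at 14.70 to 15.10 log2. Of 12 lymphocyte and plasmacytoid markers, Cd3g, Cd8b1, Cd79a and Ncr1 were below it on all 8, Cd3e, Cd4, Siglech, Bst2 and Tcf4 above it on all 8, and Cd79b, Ms4a1 and Nkg7 above it on 7, 6 and 2. Of 10 mast cell and basophil markers, Cpa3, Mcpt8, Ms4a2, Fcer1a, Kit, Gata2 and Hdc were above it on all 8, and Mcpt4, Tpsb2 and Cma1 below it on all 8. Of 10 stromal and red cell markers, Hba-a1, Alas2, Col1a1, Col1a2, Col3a1 and Cdh5 were below it on all 8, Epor and Pdgfrb above it on all 8, and Dcn and Pecam1 above it on 4 and 2. The log2 of the summed marker signal lay between 14.63 and 15.08 on the 8 arrays for dendritic cell markers, between 16.21 and 16.69 for macrophage markers and between 16.43 and 16.83 for granulocyte markers. In these mixed cultures, fewer cells of a type and less RNA per cell cannot be told apart. Across all probe sets the replicate arrays of the 4 groups correlated with r from 0.978 to 0.984, and array medians lay between 7.48 and 7.54 log2. The precision is limited by the number of arrays, 2 per group.

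TNF acted on largely the same genes in both settings. Across the 12172 tested genes, the TNF response after CA074Me correlated with that in DMSO with r = 0.861 in experiment 1 and 0.819 in experiment 2. These 2 responses share no array, but the genes are not independent and the arrays share an experiment. Taken from different experiments, the 2 responses correlated with r = 0.743 and 0.763. Without a term for the experiment, limma called 159 genes after CA074Me, 108 higher (0.887% of the tested genes) and 51 lower (0.419%), of which 46 differed at least 2-fold. Scaling to 6 reference genes moved all genes by 0.13 log2 for TNF after CA074Me, by 0.11 for TNF in DMSO and by 0.02 for the interaction. With it 159 genes were higher and 36 lower after CA074Me. Among the reference genes, Gusb itself fell with TNF by 0.73 log2 after CA074Me (limma adjusted p = 0.0493). In DMSO Gusb had a value of -0.49 (adjusted p = 0.4), and its part in these shifts was not tested. Without that scaling and without a term for the experiment, limma called 14 genes in DMSO, with 10 higher (0.0822%) and 4 lower (0.0329%). With the experiment as a block, 605 (4.97%) and 750 (6.16%) genes were called after CA074Me, and 139 (1.14%) and 240 (1.97%) in DMSO. These counts do not show that the responses differ, which is what the interaction tests. Its limma fit called 0 genes (0%) with or without the block, at a smallest adjusted p of 1.00 in each. At an unadjusted p under 0.05 there were 80 genes without the block (0.657% of those tested), 63 of them above 0, and 303 with it (2.49%), 239 of them above 0. A count of 0 does not show that no gene differs.

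The size of what could have been missed follows from the intervals. The 95% confidence interval of a gene's interaction had a median reach of 0.43 log2 without the block and 0.29 with it. The interaction had a standard deviation over genes of 0.167 log2 in each experiment, against 0.326 and 0.283 for the TNF response after CA074Me and 0.305 and 0.192 for that in DMSO. Between experiments the interaction correlated across genes with r = 0.219, where the TNF response after CA074Me reached 0.831 and that in DMSO 0.714. The TNF response in DMSO thus had a narrower spread in experiment 2, and its part in the interaction of that experiment was not tested. The interaction was above 0 in both experiments for 4482 genes (36.8%) and below 0 in both for 2440 (20.0%), and its median over all tested genes was 0.04 and 0.02 log2 in experiments 1 and 2. The 2 percentages serve below as the background for gene groups. They are not matched for level, and Spearman's correlation between mean level and interaction was 0.16 and 0.21 in experiments 1 and 2. The part of level in the counts of the groups was not tested.

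**Figure D1:**
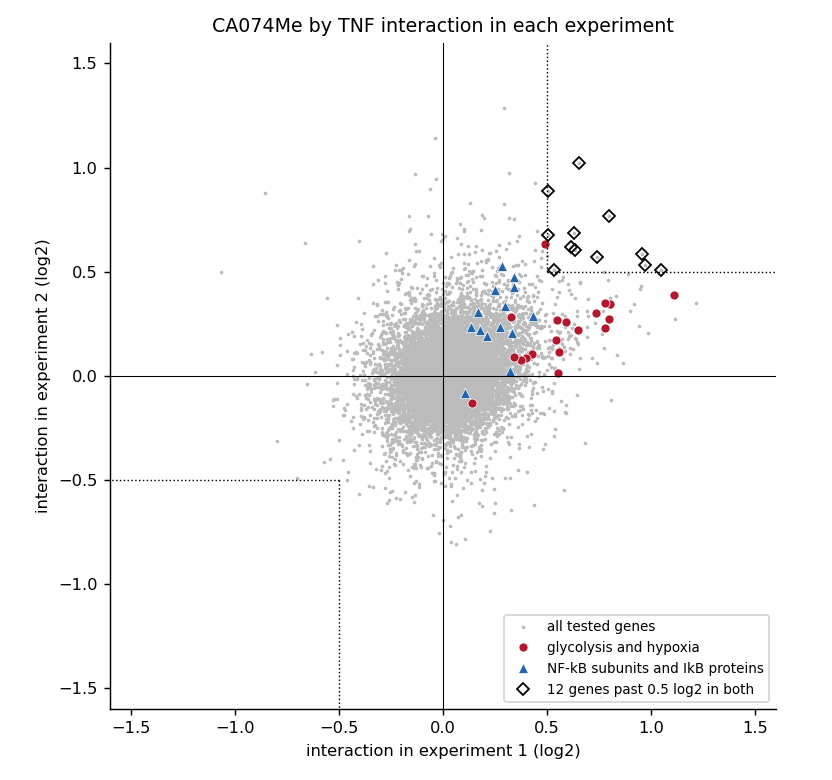
Interaction of each of the 12172 tested genes in experiment 1 (horizontal axis, log2) and experiment 2 (vertical axis, log2), with 2 gene lists and the 12 genes past 0.5 log2 in both experiments marked. Dotted lines bound the areas past 0.5 log2 in both, and the lower left area holds 0 genes.

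Glycolytic and hypoxia-inducible genes had the highest median interaction of the 21 gene lists in experiment 1. In experiment 2 several lists lay above them, with Th1-associated mediators the highest at 0.34 log2. Glycolysis turns glucose into pyruvate and lactate in the cytosol, and many of its enzymes are raised, together with the oxygen-sensing hydroxylase Egln3 and the mitophagy receptor Bnip3, by the hypoxia-inducible factor HIF-1, which dendritic cells also use when activated. The interaction was above 0 in both experiments for 18 of the 19 tested members, beside 36.8% of all tested genes. The list's median was 0.55 log2 in experiment 1 and 0.23 in experiment 2, and 18 of 19 members were larger in experiment 1. No member passed the adjusted threshold. Unadjusted, 4 members were under 0.05 without the block, beside 0.657% of all tested genes, and 11 with it, beside 2.49%. The median over both experiments, 0.41 log2, was 0.22 without the CA074Me unstimulated array of experiment 1, and 0.26 without it in the fit with the block.

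The promoters of Egln3, of P4ha2, a collagen prolyl hydroxylase, and of the enolase gene Eno2 are shown because the 3 genes have large interactions and are known to be hypoxia-inducible. The windows of Egln3 and P4ha2 hold ACGTG on either strand, in capitals, 1 and 2 times. That of Eno2 holds it 0 times, and its capitals mark a simplified kB motif, GGG and TTTCC separated by any 2 bases. ACGTG is 1 form of the core of the HIF-1 site, and other forms were not searched or marked. The letters ACGTG also form part of the E box CACGTG. Each window runs from 250 bases before to 50 after a start site and is read 5′ to 3′ along the gene, from RefSeq on build GRCm38.p6. The Egln3 window is chr12:54203825-54204124, minus strand, that of P4ha2 is chr11:54100674-54100973, plus strand, and that of Eno2 is chr6:124769624-124769923, minus strand.
Egln3: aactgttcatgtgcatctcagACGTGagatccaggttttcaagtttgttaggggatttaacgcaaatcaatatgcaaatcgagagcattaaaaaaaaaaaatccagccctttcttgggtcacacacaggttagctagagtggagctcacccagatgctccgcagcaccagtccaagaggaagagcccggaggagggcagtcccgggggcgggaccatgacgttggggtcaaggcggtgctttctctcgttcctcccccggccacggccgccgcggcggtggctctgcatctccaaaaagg
P4ha2: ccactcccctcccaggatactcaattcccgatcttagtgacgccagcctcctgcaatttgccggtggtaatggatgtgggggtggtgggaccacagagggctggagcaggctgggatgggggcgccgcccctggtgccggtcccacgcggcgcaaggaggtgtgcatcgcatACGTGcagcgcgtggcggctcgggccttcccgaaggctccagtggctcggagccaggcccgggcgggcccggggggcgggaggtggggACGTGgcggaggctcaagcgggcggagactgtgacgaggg
Eno2: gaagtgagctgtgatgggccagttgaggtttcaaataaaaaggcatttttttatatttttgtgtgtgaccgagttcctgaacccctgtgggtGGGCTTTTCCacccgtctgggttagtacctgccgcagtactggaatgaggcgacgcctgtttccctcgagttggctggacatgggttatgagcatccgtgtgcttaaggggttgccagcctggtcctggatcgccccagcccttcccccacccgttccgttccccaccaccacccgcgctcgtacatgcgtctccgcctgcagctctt
Of the 18 tested list members with a promoter in the RefSeq table, 14 held ACGTG in at least 1 window (77.8%), against 28.7% of the tested genes and 21.8% of all genes in that table. The list was made of glycolytic and known hypoxia-inducible genes, so this share describes the list and not the interaction. A match is only a match of letters.

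Egln3 measured 12.38 and 12.43 log2 on the CA074Me TNF arrays (experiments 1 and 2), 11.31 and 12.12 on the CA074Me unstimulated arrays, 12.16 and 12.28 on the DMSO TNF arrays and 12.20 and 12.36 on the DMSO unstimulated arrays. It was lowest in unstimulated CA074Me cells in both experiments, and the 2 DMSO groups overlapped each other just below CA074Me with TNF. Its interaction was 0.75 ± 0.36 log2 (standard error; 0.22 with the block), 1.11 and 0.39 in the experiments (limma adjusted p = 1.00 with or without the block). The phosphofructokinase gene Pfkl, which encodes the liver-type enzyme of the committed step of glycolysis, measured 10.86 and 10.55 log2 in CA074Me TNF, 10.25 and 10.23 in CA074Me unstimulated, 10.53 and 10.46 in DMSO TNF and 10.72 and 10.48 in DMSO unstimulated. Both arrays of unstimulated CA074Me cells lay below the 6 others. Its interaction was 0.57 ± 0.19 log2, 0.80 and 0.34 in the experiments (limma unadjusted p = 0.0131, adjusted p = 1.00). Dimmer probe sets of Pfkl gave 0.63 and 0.27 log2, and 0.44 and -0.02.

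Other members, chosen after their values were seen, ran the same way. Hexokinase 1 (Hk1), which makes the first step of glucose use, measured 11.73 and 11.56 log2 in CA074Me TNF, 11.17 and 11.28 in CA074Me unstimulated, 11.32 and 11.41 in DMSO TNF and 11.53 and 11.48 in DMSO unstimulated. Both CA074Me TNF arrays were the highest of their experiment and both CA074Me unstimulated arrays the lowest. The interaction of Hk1 was 0.78 and 0.35 log2 in experiments 1 and 2, and a dimmer probe set gave only 0.19 and 0.13. Bnip3 gave an interaction of 0.80 and 0.27 log2 in experiments 1 and 2, hexokinase 2 (Hk2) 0.73 and 0.30, and triosephosphate isomerase (Tpi1) 0.59 and 0.26. The abundant enzymes lactate dehydrogenase A (Ldha), aldolase A (Aldoa) and phosphoglycerate kinase 1 (Pgk1) were smaller, at 0.40 and 0.09, 0.34 and 0.09, and 0.43 and 0.10 log2. Adrenomedullin (Adm), a vasoactive peptide, was the only one of the 19 that was larger in experiment 2, at 0.49 and 0.63. Hexokinase 3 (Hk3) was the exception in sign, at 0.14 and -0.13.

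The interaction of this list was seen in both arms of the layout. TNF response medians after CA074Me were 0.46 log2 in experiment 1 and 0.11 in experiment 2, against -0.16 and -0.06 in DMSO. Read the other way, the median CA074Me effect was 0.17 and 0.06 log2 under TNF, against -0.36 and -0.14 without stimulus. The inhibitor effect was below 0 in both experiments for 18 of 19 members without stimulus, and above 0 in both for 13 under TNF. Over all tested genes these counts were 4598 and 3618 of 12172. In both experiments the lowest level of 14 members was on the CA074Me unstimulated array, and the highest of 10 members on the CA074Me TNF array, where over all tested genes these counts were 1538 and 1677 of 12172. In the fit without the block, 0 members were called in either TNF response. Over all tested genes, that fit called 0.887% higher and 0.419% lower after CA074Me, and 0.0822% and 0.0329% in DMSO. With the block 4 rose after CA074Me (beside 4.97% of all tested genes) and 1 in DMSO (beside 1.14%), namely Pfkfb3, which makes the activator of phosphofructokinase and rose by 0.98 log2 after CA074Me and by 0.68 in DMSO (limma adjusted p = 0.00102 and 0.0105 with the block).

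**Figure D2:**
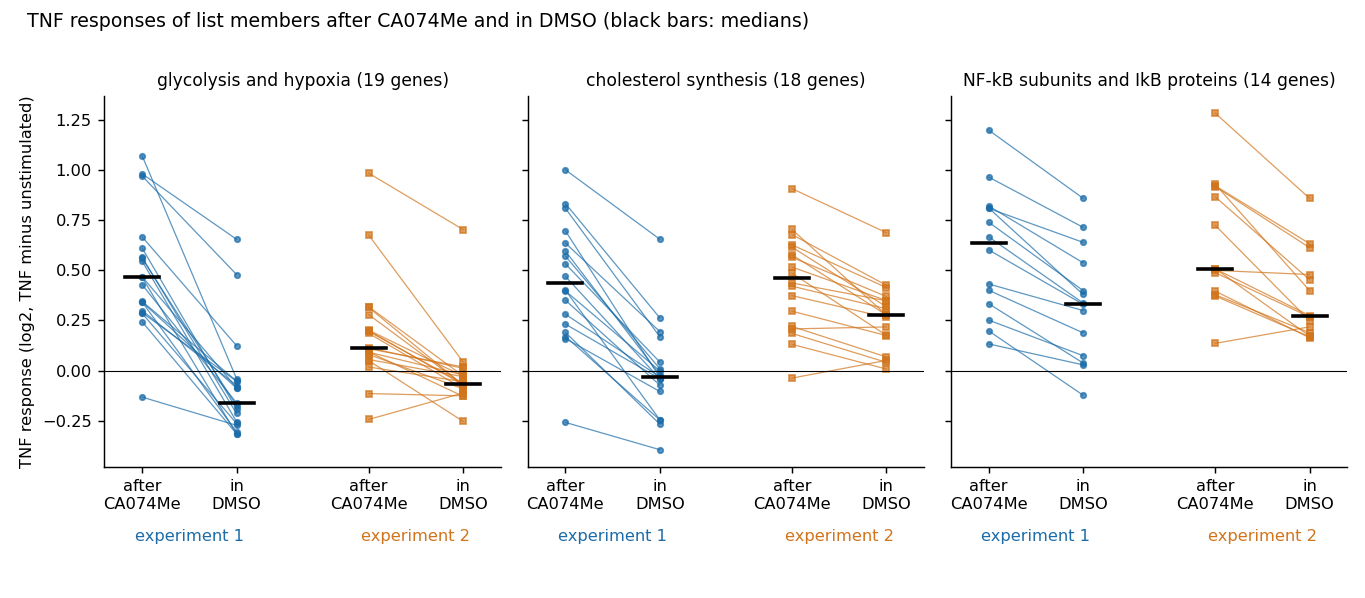
TNF response (log2, TNF minus unstimulated) of each tested member of 3 gene lists, after CA074Me (left of each pair) and in DMSO (right), joined by gene and split by experiment. The median of the glycolysis list was 0.46 and 0.11 log2 after CA074Me, against -0.16 and -0.06 in DMSO.

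Cholesterol synthesis genes had the second highest median in experiment 1 and over both experiments, while in experiment 2 several lists lay above them. These enzymes convert acetyl units to sterols and are raised by SREBP2 when the sterol of the endoplasmic reticulum runs low, a supply that depends on lysosomal release of cholesterol. The interaction was above 0 in both experiments for 16 of 18 tested members and below 0 in both for 0, with a median of 0.45 log2 in experiment 1 and 0.16 in experiment 2. All 18 were larger in experiment 1. Over both experiments the median was 0.31 log2. In the fits with the block that leave out 1 array it was 0.15 without the DMSO unstimulated array of experiment 1 and 0.50 without that of experiment 2. Squalene synthase (Fdft1) measured 12.05 and 12.53 log2 in CA074Me TNF, 11.36 and 11.85 in CA074Me unstimulated, 11.81 and 12.32 in DMSO TNF and 11.84 and 11.89 in DMSO unstimulated. The CA074Me TNF array was the highest of its experiment each time and the CA074Me unstimulated array the lowest. Its interaction was 0.49 ± 0.42 log2 (standard error; 0.17 with the block), and that of squalene epoxidase (Sqle) was 0.48 ± 0.45 (0.19 with the block), both with a limma adjusted p of 1.00.

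For cholesterol genes the TNF response after CA074Me had a median of 0.43 and 0.46 log2 in experiments 1 and 2, against -0.03 and 0.28 in DMSO. Without the block 2 members rose after CA074Me and 0 in DMSO (beside 0.887% and 0.0822% of all tested genes), and with it 6 and 1 (beside 4.97% and 1.14%). Isopentenyl diphosphate isomerase (Idi1) rose by 0.95 ± 0.13 log2 after CA074Me (limma adjusted p = 0.0104), against a value of 0.67 ± 0.13 in DMSO (adjusted p = 0.111, and 0.0126 with the block). Hydroxysteroid dehydrogenase Hsd17b7 rose by 0.72 ± 0.13 log2 after CA074Me (adjusted p = 0.0382), against a value of 0.29 ± 0.13 in DMSO (adjusted p = 0.687, and 0.148 with the block). Its interaction was 0.57 and 0.30 log2 in experiments 1 and 2. The CA074Me effect had a median of 0.17 and 0.17 log2 under TNF, against -0.30 and -0.01 without stimulus. Under TNF it was above 0 in both experiments for 18 of 18 members, beside 3618 of all 12172 tested genes.

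NF-kB subunits and IkB proteins were the list whose medians were most alike between experiments among these 3, at 0.28 and 0.26 log2. The interaction was above 0 in both experiments for 13 of the 14 tested members and below 0 in both for 0. The exception was the IkB kinase subunit Ikbkg, at 0.10 and -0.08. The TNF response after CA074Me had a median of 0.63 and 0.51 log2, against 0.33 and 0.27 in DMSO. Without the block 3 members rose after CA074Me and 1 in DMSO (beside 0.887% and 0.0822% of all tested genes), and with it 11 and 3 (beside 4.97% and 1.14%), but 0 interactions passed the test. The list's median of 0.26 log2 was 0.17 in the fit with the block that leaves out the CA074Me unstimulated array of experiment 1, and 0.40 without the CA074Me TNF array of experiment 1. In both experiments 12 of 14 members were lowest on the CA074Me unstimulated array and 9 were highest on the CA074Me TNF array, beside 1538 and 1677 of all 12172 genes.

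Nfkb2 encodes the precursor p100, whose processed form pairs with Relb in the slower, noncanonical branch of the pathway. A promoter of it is shown because it is a known NF-kB target and this window, around 1 of its 3 start sites in the RefSeq table (chr19:46305445-46305744, plus strand, GRCm38.p6), holds the same kB motif in capitals.
Nfkb2: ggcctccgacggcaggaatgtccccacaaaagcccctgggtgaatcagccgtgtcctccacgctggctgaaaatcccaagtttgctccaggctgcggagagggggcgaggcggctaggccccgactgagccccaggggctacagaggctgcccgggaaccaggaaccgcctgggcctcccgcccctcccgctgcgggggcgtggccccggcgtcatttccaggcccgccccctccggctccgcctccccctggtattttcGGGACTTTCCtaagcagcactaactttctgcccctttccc
The motif, searched on both strands, was in at least 1 window of 3 of the 11 tested list members with a promoter in the table (27.3%), against 2.08% of the tested genes and 1.89% of all genes there. The list was made of NF-kB pathway genes, so this share too describes the list and not the interaction. A match is only a match of letters.

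Relb, the partner of processed p100, measured 12.20 and 12.20 log2 in CA074Me TNF, 11.00 and 10.92 in CA074Me unstimulated, 12.04 and 11.80 in DMSO TNF and 11.19 and 10.95 in DMSO unstimulated. The 4 TNF arrays lay above the 4 others, and both CA074Me TNF arrays above both DMSO TNF arrays. TNF raised it by 1.24 ± 0.12 log2 after CA074Me (limma adjusted p = 0.00352) and by 0.86 ± 0.12 in DMSO (adjusted p = 0.0493). The interaction was 0.38 ± 0.17 log2, 0.34 and 0.42 in the experiments, with an unadjusted p of 0.052, or 0.00488 with the block, and a limma adjusted p of 1.00 in both. Nfkb2 measured 10.39 and 10.46 log2 in CA074Me TNF, 9.57 and 9.53 in CA074Me unstimulated, 10.35 and 10.09 in DMSO TNF and 9.81 and 9.69 in DMSO unstimulated. It rose by 0.87 ± 0.12 log2 after CA074Me (adjusted p = 0.0138), against a value of 0.47 ± 0.12 in DMSO (adjusted p = 0.338, and 0.04 with the block). A second probe set of Nfkb2 gave an interaction of 0.28 and -0.00 log2 where the one used gave 0.28 and 0.53.

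The IkB family members of the list lay on the same side. Bcl3, a nuclear IkB protein that binds p50 and p52 dimers, had an interaction of 0.43 and 0.29 log2 in experiments 1 and 2. Nfkbiz, which encodes the nuclear protein IkB zeta, had 0.34 and 0.48, and Nfkbia 0.13 and 0.23. Among TNF receptor signalling genes the interaction was above 0 in both experiments for 14 of 21 and below 0 in both for 1, with a median of 0.16 and 0.09 log2. Tnfaip3 measured 12.78 and 12.75 log2 in CA074Me TNF, 11.55 and 11.89 in CA074Me unstimulated, 12.76 and 12.38 in DMSO TNF and 12.11 and 11.98 in DMSO unstimulated. Under TNF the CA074Me and DMSO arrays lay close together in experiment 1 and parted in experiment 2. Its interaction was 0.53 ± 0.33 log2, 0.58 and 0.48 in the experiments (limma adjusted p = 1.00). A dimmer probe set of Tnfaip3 gave 0.14 and 0.28 log2. The antiapoptotic gene Cflar, an inhibitor of caspase 8, had 0.42 and 0.26. The adaptor genes Traf1 and Tnip1 rose after CA074Me by 1.29 and 0.63 log2 (limma adjusted p = 0.0104 and 0.0396) and had values of 0.96 and 0.37 in DMSO (adjusted p = 0.0957 and 0.415, and 0.02 and 0.106 with the block, which calls Traf1). The receptor genes Tnfrsf1a and Tnfrsf1b had interactions of 0.13 and -0.08, and 0.16 and 0.39 log2.

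All 14 genes called for TNF in DMSO were also called after CA074Me, in the same direction. Their interaction was above 0 for the 10 that rose and below 0 for the 4 that fell, so the mean response was larger in size after CA074Me for each of the 14. It kept that side in both experiments for 9 of the 10 and 3 of the 4. These genes were chosen by the DMSO response, which is part of the interaction, so the count is a description. Gucd1, which encodes a little-studied guanylyl cyclase domain protein, measured 11.45 and 11.62 log2 in CA074Me TNF, 10.55 and 10.62 in CA074Me unstimulated, 11.25 and 11.24 in DMSO TNF and 10.60 and 10.61 in DMSO unstimulated. Its arrays fell into 3 levels, with both unstimulated groups together at the bottom. The interaction was 0.31 ± 0.10 log2, 0.26 and 0.37 in the experiments (unadjusted p = 0.0143, limma adjusted p = 1.00). Itgb7, an integrin subunit of leukocyte homing, measured 9.15 and 8.85 log2 in CA074Me TNF, 10.30 and 10.21 in CA074Me unstimulated, 9.27 and 9.20 in DMSO TNF and 10.17 and 10.11 in DMSO unstimulated. It fell by 1.26 ± 0.11 log2 after CA074Me and by 0.91 ± 0.11 in DMSO (limma adjusted p = 0.00246 and 0.0233), and its interaction of -0.35 ± 0.15 was the most negative of the 79 genes named by the rule.

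Among the others of the 14, Lad1 (ladinin) rose by 1.79 log2 after CA074Me and by 1.53 in DMSO, with an interaction of 0.08 and 0.45 in the experiments. Nipal1, Efna2 and Tmem176a had interactions of 0.43, 0.27 and 0.27 log2, and Cyria, Rhoc, Rcl1 and Mreg of 0.17, 0.12, 0.11 and 0.08. Nipal1 encodes a magnesium transporter, Efna2 the ephrin A2 ligand, Rhoc a small GTPase of the cytoskeleton and Mreg melanoregulin. Among the genes that fell, the lectin gene Mgl2 had 0.17 and -0.61 log2, Arhgap15 -0.15 and -0.31, and Pgm2l1 -0.14 and -0.24. Without the CA074Me unstimulated array of either experiment, or the DMSO TNF array of experiment 1, 1 gene was called for TNF in DMSO. It was 5 without the DMSO TNF array of experiment 2, and 0 without either DMSO unstimulated array or with only the 8 arrays in the fit. For TNF after CA074Me, 59 and 7 genes were called without the CA074Me TNF array of experiment 1 and 2, 5 and 53 without the CA074Me unstimulated array, and 81 without either DMSO unstimulated array.

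No interaction passed the test, so single genes were ordered by size in both experiments. In 12 genes (0.0986% of those tested) the interaction was at least 0.5 log2 in both experiments with the same sign. All 12 were above 0, and below 0 there were 0 (0%). Just inside the limit were Marf1 and Ahnak, at 0.50 in their smaller experiment, and just outside it Rtl5, Arg1, Nmrk1 and Adm at 0.50, 0.50, 0.50 and 0.49, all under 0.5 before rounding. The most negative gene, the sphingosine phosphatase Sgpp1, was -0.70 and -0.49. These 12 genes were chosen by the interaction itself, so their values describe them and test nothing. Of the 12, 10 were lowest on the CA074Me unstimulated array in both experiments, 5 were highest on the CA074Me TNF array in both, and in 11 the CA074Me effect without stimulus was below 0 in both. Over all tested genes these counts were 1538, 1677 and 4598 of 12172.

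**Figure D3:**
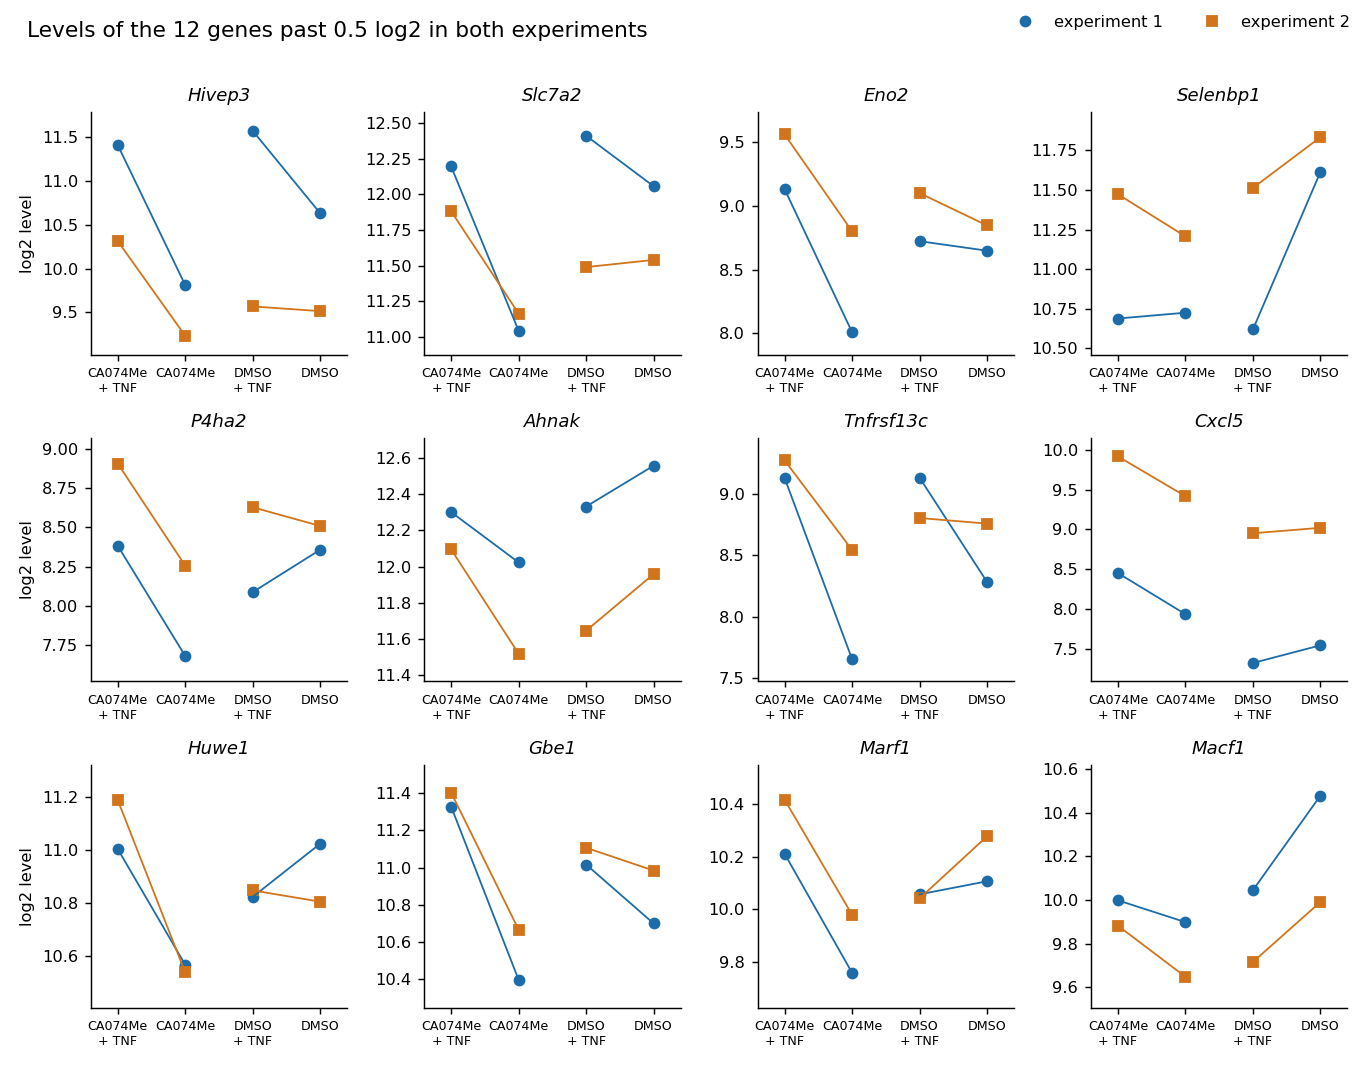
Level (log2) of the 12 genes on each of the 8 arrays, with CA074Me plus TNF, CA074Me, DMSO plus TNF and DMSO from left to right, lines joining TNF and unstimulated arrays of 1 experiment. In 10 of the 12 panels the CA074Me array is the lowest of both experiments.

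Of these genes 3 belong to metabolism that hypoxia is known to raise. Eno2, the gamma form of the glycolytic enzyme enolase, measured 9.13 and 9.56 log2 in CA074Me TNF, 8.01 and 8.80 in CA074Me unstimulated, 8.72 and 9.10 in DMSO TNF and 8.65 and 8.85 in DMSO unstimulated. In both experiments it was highest with CA074Me plus TNF and lowest with CA074Me alone. The interaction was 0.78 ± 0.42 log2 (standard error; 0.18 with the block), or 1.71 as a ratio of the fold changes. P4ha2 measured 8.38 and 8.91 log2 in CA074Me TNF, 7.68 and 8.26 in CA074Me unstimulated, 8.09 and 8.63 in DMSO TNF and 8.36 and 8.51 in DMSO unstimulated, an interaction of 0.97 and 0.53. Gbe1, the glycogen branching enzyme, measured 11.33 and 11.40 log2 in CA074Me TNF, 10.39 and 10.66 in CA074Me unstimulated, 11.02 and 11.11 in DMSO TNF and 10.70 and 10.98 in DMSO unstimulated, with 0.62 in both experiments. Each of the 3 kept the same order of the CA074Me arrays around the DMSO arrays. With the block, limma called the TNF response after CA074Me of Eno2, P4ha2 and Gbe1 (adjusted p = 0.00303, 0.00534 and 0.00315) and not that in DMSO (0.486, 0.704 and 0.308). Without the block it called neither response in any of them (after CA074Me, adjusted p = 0.215, 0.426 and 0.127). These genes were chosen by the interaction, which is made of these 2 responses, so the calls are a description.

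Transport and signalling genes make up another part. Slc7a2, a carrier of arginine and other cationic amino acids, measured 12.19 and 11.88 log2 in CA074Me TNF, 11.05 and 11.17 in CA074Me unstimulated, 12.41 and 11.49 in DMSO TNF and 12.06 and 11.54 in DMSO unstimulated. The CA074Me unstimulated arrays were below the 6 others, and the interaction was 0.80 and 0.77. Cxcl5, a chemokine that attracts neutrophils, measured 8.45 and 9.92 log2 in CA074Me TNF, 7.93 and 9.42 in CA074Me unstimulated, 7.32 and 8.95 in DMSO TNF and 7.54 and 9.02 in DMSO unstimulated. In each experiment both CA074Me arrays lay above both DMSO arrays, with the widest gap under TNF. Its interaction was 0.74 and 0.57 log2, and the experiments stood more than 1 log2 apart. Its CA074Me effect under TNF, 1.13 and 0.97 log2, was the 1 call of that comparison with the block (0.00822%; limma adjusted p = 0.0142), and it was lost when any 1 of the 8 arrays was left out (0 calls, smallest adjusted p from 0.0619 to 0.405 with the block), where the fit without the block called 0 (0%; 98 genes at an unadjusted p under 0.05). Without stimulus the inhibitor effect on Cxcl5 was 0.39 and 0.40 log2, and that comparison held 0 limma calls, with 66 genes at an unadjusted p under 0.05 without the block and 335 with it. Tnfrsf13c, the receptor of the B cell survival factor BAFF, measured 9.13 and 9.28 log2 in CA074Me TNF, 7.65 and 8.54 in CA074Me unstimulated, 9.13 and 8.80 in DMSO TNF and 8.28 and 8.76 in DMSO unstimulated, and was lowest with CA074Me alone.

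The remaining genes are Hivep3, Selenbp1, Ahnak, Huwe1, Marf1 and Macf1. Hivep3, a zinc finger protein that binds kB-like motifs, had the largest mean, 0.84 ± 1.27 log2 (0.49 with the block), on levels of 11.41 and 10.31 in CA074Me TNF, 9.81 and 9.24 in CA074Me unstimulated, 11.57 and 9.57 in DMSO TNF and 10.63 and 9.52 in DMSO unstimulated. The 2 arrays of each group except CA074Me unstimulated stood more than 1 log2 apart. Selenbp1, a selenium-binding oxidase of methanethiol, measured 10.69 and 11.47 log2 in CA074Me TNF, 10.73 and 11.21 in CA074Me unstimulated, 10.62 and 11.51 in DMSO TNF and 11.61 and 11.83 in DMSO unstimulated. It was highest on the DMSO unstimulated array of each experiment, and its interaction was 0.96 and 0.59. A second probe set of Selenbp1 gave 0.99 and 0.59. Huwe1, a ubiquitin ligase, had an interaction of 0.62 ± 0.27 log2 (unadjusted p = 0.0457), and Marf1, an RNA-binding regulator of meiosis, 0.59 ± 0.18 (unadjusted p = 0.009), both with a limma adjusted p of 1.00. Ahnak, a giant scaffold protein, had 0.50 and 0.89 log2 and the cytoskeletal linker Macf1 0.53 and 0.51, and both were lower on the DMSO TNF array than on the DMSO unstimulated array of the same experiment.

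The value of these genes depended on the probe set. Of the 12 genes, 7 have more than 1 probe set. Of the 19 probe sets that were not used to choose these genes, 9 were above 0 in both experiments and 2 below 0 in both. The 4 other probe sets of Hivep3 averaged between -0.11 and 0.10 log2, and the 3 others of Ahnak between -0.08 and 0.11. All of those others were dimmer than the one used. Several of the 12 span long stretches of genome, with Hivep3, Macf1, Gbe1 and Huwe1 at the percentiles 99, 98.5, 97.5 and 92.9 of the tested genes. Others are short, with Cxcl5, Tnfrsf13c, Eno2 and Selenbp1 at the percentiles 4.3, 5.3, 25.7 and 30.5. Across 12153 genes with a span, Spearman's correlation between span and interaction was 0.05 and 0.06 in the 2 experiments, and over all tested genes that between the mean level and the interaction was 0.16 and 0.21, as a description over genes. The difference between the 3′ and 5′ control probe sets, a sign of RNA quality, gave an interaction of 0.00 and 0.04 log2 for Gapdh, -0.02 and -0.05 for Actb, 0.39 and -0.16 for Tfrc and 0.40 and 0.03 for Pcx. The part of these measures in the interaction was not tested.

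Maturation genes, which equip dendritic cells to prime T cells, had a median interaction of 0.17 and 0.20 log2, above 0 in both experiments for 17 of 23 and below 0 in both for 0. The median over both experiments, 0.18 log2, was 0.08 and 0.47 without the CA074Me unstimulated array of experiment 1 and 2, 0.30 without the CA074Me TNF array of experiment 1 and 0.39 without the DMSO unstimulated array of experiment 1. In the fits with the block that leave out 1 array, it ran from 0.02 to 0.39 log2. Without the block, 4 members rose after CA074Me and 1 in DMSO (beside 0.887% and 0.0822% of all tested genes), and with it 15 and 4 (beside 4.97% and 1.14%). Cd40, the receptor through which T helper cells license dendritic cells, measured 12.70 and 12.75 log2 in CA074Me TNF, 10.71 and 11.01 in CA074Me unstimulated, 12.71 and 12.05 in DMSO TNF and 11.17 and 11.01 in DMSO unstimulated. The TNF arrays were above the others in both settings, and the interaction was 0.57 ± 0.59 log2, 0.45 and 0.70 in the experiments. Cd70, the ligand of CD27 on T cells, had 0.44 and 0.92. The chemokine genes Ccl22 and Ccl17 rose after CA074Me by 1.07 and 0.59 log2 (limma adjusted p = 0.0412 and 0.0474), against values of 0.85 and 0.39 in DMSO (adjusted p = 0.235 and 0.4, and 0.0419 and 0.0752 with the block, which calls Ccl22), and had interactions of 0.17 and 0.26, and 0.33 and 0.07. Among other costimulatory genes Cd83 had 0.27 and 0.20, Cd80 0.19 and 0.10, and Cd86 -0.01 and 0.15 log2, while the homing receptor Ccr7 had 0.09 and 0.09.

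Inflammatory, interferon and Th1-associated genes had the larger median in experiment 2. It was -0.00 log2 in experiment 1 and 0.34 in experiment 2 for Th1-associated mediators, 0.02 and 0.27 for chemokines, 0.10 and 0.31 for inflammatory cytokines and 0.02 and 0.26 for type I interferon genes. Leaving out 1 array with the block gave medians of -0.20 to 0.43, -0.01 to 0.41, -0.05 to 0.38 and -0.12 to 0.46 for these 4 lists, so their signs rest on single arrays. Over the same genes the TNF response in DMSO was the smaller one in experiment 2, with medians of 0.65 and 0.19, 0.43 and 0.18, 0.25 and 0.14, and 0.26 and 0.08 log2 in experiments 1 and 2. The chemokine gene Ccl1, a ligand of CCR8, had the largest value of these lists. It measured 11.74 and 11.01 log2 in CA074Me TNF, 8.60 and 8.51 in CA074Me unstimulated, 11.50 and 9.66 in DMSO TNF and 8.66 and 8.44 in DMSO unstimulated. The unstimulated groups met, and under TNF the gap between CA074Me and DMSO lay mostly in experiment 2, so that the interaction was 0.29 and 1.29 (limma adjusted p = 1.00). Il6 had 0.13 and 0.83 log2 and the prostaglandin synthase Ptgs2 -0.03 and 0.94. Il12b, the p40 subunit of IL-12 and IL-23, had -0.23 and 0.51, and Il12a, the p35 subunit, -0.02 and 0.34. Il1b had 0.34 and 0.43 and Tnf itself 0.14 and 0.34. Cxcl3 was the widest apart, at -1.07 and 0.50, where its DMSO unstimulated array of experiment 1 (10.93 log2) stood below the other 7 (12.53 to 13.91).

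**Figure D4:**
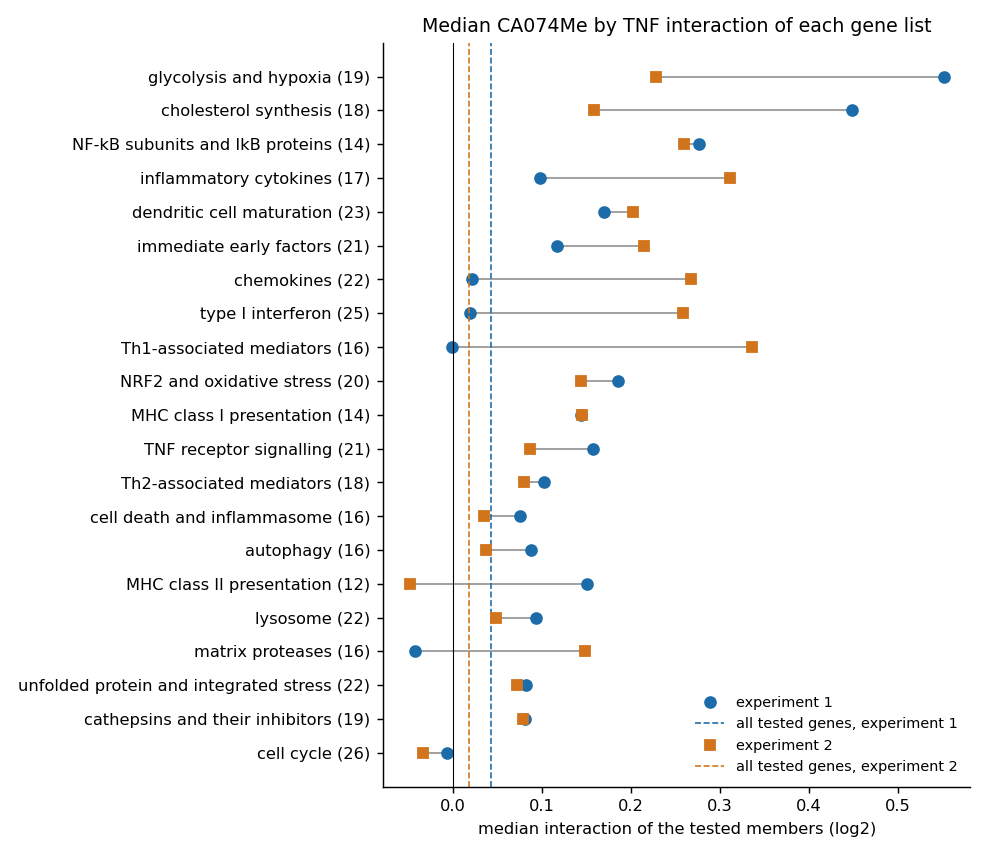
Median interaction (log2) of the tested members of 21 gene lists in each experiment, with the number of tested members in brackets and dashed lines at the median of all 12172 tested genes. Glycolysis and hypoxia genes reached 0.55 and 0.23 log2 in experiments 1 and 2, and cell cycle genes lay at -0.01 and -0.03.

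Oxidative stress genes under NRF2, the factor that reactive compounds release from KEAP1, had inhibitor effects above 0 in both settings and a smaller interaction. The median CA074Me effect was 0.73 and 0.34 log2 under TNF, against 0.49 and 0.24 without stimulus. It was above 0 in both experiments for 19 and 17 of the 20 members, beside 3618 and 2127 of all 12172 tested genes. None of the effects on single members passed the test. The interaction had a median of 0.19 and 0.14 log2 and was above 0 in both experiments for 14 members. Its median over both experiments, 0.15 log2, was -0.13 and 0.45 without the CA074Me TNF array of experiment 1 and 2, 0.34 and -0.09 without the CA074Me unstimulated array, 0.38 and -0.05 without the DMSO TNF array, and 0.04 without the DMSO unstimulated array of experiment 1, so its sign rests on single arrays. Heme oxygenase Hmox1 measured 12.31 and 11.69 log2 in CA074Me TNF, 11.54 and 11.38 in CA074Me unstimulated, 11.18 and 11.01 in DMSO TNF and 10.91 and 11.00 in DMSO unstimulated. All 4 CA074Me arrays lay above the 4 DMSO arrays, and the interaction was 0.39 ± 0.32 log2, 0.49 and 0.29 in the experiments. The heme transporter Slc48a1 had 0.47 and 0.24. In Gclm, the modifier subunit of the enzyme that starts glutathione synthesis, the inhibitor effect was 1.39 and 0.58 log2 under TNF, against 1.22 and 0.48 without stimulus, so the interaction was only 0.17 and 0.10.

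Ctsb, the targeted protease, measured 13.80 and 13.44 log2 in CA074Me TNF, 13.76 and 13.38 in CA074Me unstimulated, 13.60 and 13.36 in DMSO TNF and 13.69 and 13.43 in DMSO unstimulated. The groups overlapped, and the interaction was 0.13 ± 0.26 log2, 0.13 in each experiment. Ctsl had 0.10 in each and Ctss 0.11 and -0.08. Among the 19 tested cathepsins and their inhibitors 7 were above 0 in both experiments, the same 36.8% as over all genes, and 1 was below, with a median of 0.08 and 0.08 log2, led by Ctsk at 0.37 and 0.17 and Ctsd at 0.09 and 0.31. Of 22 lysosomal genes 14 were above 0 in both (63.6%) and 2 below, with a median of 0.09 and 0.05. The calcium channel Mcoln1 had 0.34 and 0.10, and Gusb, a lysosomal glucuronidase, -0.19 and -0.31. Among autophagy genes, with medians of 0.09 and 0.04 log2, the cargo receptor Sqstm1 measured 13.11 and 12.99 log2 in CA074Me TNF, 12.35 and 12.38 in CA074Me unstimulated, 12.49 and 12.48 in DMSO TNF and 12.05 and 12.10 in DMSO unstimulated. Those 4 groups did not overlap, and its interaction was 0.28 ± 0.11 log2 (unadjusted p = 0.0306, limma adjusted p = 1.00). It rose by 0.69 log2 after CA074Me (limma adjusted p = 0.00616), against a value of 0.41 in DMSO (adjusted p = 0.119, and 0.0234 with the block). Wipi1 had 0.07 and 0.35.

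Antigen presentation genes supply peptides to T cells. Of 14 class I genes 12 were above 0 in both experiments and 0 below, with a median of 0.14 and 0.15 log2, led by the transactivator Nlrc5 at 0.27 and 0.52 and the peptide transporter Tap1 at 0.28 and 0.19. Of 12 class II genes 4 were above 0 in both, with a median of 0.15 and -0.05, led by H2-Ob at 0.52 and 0.21 and the transactivator Ciita at 0.38 and 0.17. Cell cycle genes had a median TNF response of -0.51 and -0.33 log2 after CA074Me, against -0.56 and -0.24 in DMSO. With the block 11 of 26 were called lower after CA074Me and 4 in DMSO (beside 6.16% and 1.97% of all tested genes). Without it 0 were called lower in either (beside 0.419% and 0.0329%). Their interaction was above 0 in both experiments for 6 and below 0 in both for 8, with Bub1, a spindle checkpoint kinase, at 0.60 and 0.17 and Mcm4, a replication helicase subunit, at -0.62 and 0.02.

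Immediate early factors had medians of 0.12 and 0.21 log2, with 12 of 21 above 0 in both experiments and 6 below, and Nr4a3, an orphan nuclear receptor, at 0.55 and 0.21. Stress genes of the unfolded protein and integrated response had 0.08 and 0.07, with Atf3 at 0.62 and 0.23 and the eIF2 alpha phosphatase subunit Ppp1r15a at 0.38 and 0.30. Th2-associated mediators had 0.10 and 0.08, with arginase 1 (Arg1) at 0.77 and 0.50 as the largest after Ccl1, which is also on that list. Cell death genes had 0.08 and 0.04, with Casp4 at 0.16 and 0.40, and matrix proteases -0.04 and 0.15, with Adam8 at 0.57 and 0.15 and Mmp14 at 0.09 and 0.35. Marker lists had a median interaction of 0.04 and -0.12 log2 for macrophage and monocyte markers, -0.03 and 0.02 for granulocyte markers and 0.15 and -0.16 for dendritic cell markers. It was -0.07 and 0.12 for mast cell and basophil markers, 0.08 and 0.05 for lymphocyte and plasmacytoid markers and -0.05 and 0.12 for stromal and red cell markers. The part of the cell mix in the interaction was not tested.

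The corresponding interaction of the cathepsin L inhibitor, (CLIK148 with CpG minus CLIK148 unstimulated) minus (DMSO with CpG minus DMSO unstimulated), shares the DMSO unstimulated arrays and uses another stimulus, so the values stand side by side without a test. Glycolysis and hypoxia genes had a median of 0.55 and 0.23 log2 for CA074Me by TNF, and 0.01 and -0.09 for CLIK148 by CpG. Cholesterol synthesis genes had 0.45 and 0.16, and -0.13 and -0.14. NF-kB subunits and IkB proteins had 0.28 and 0.26, and 0.03 and -0.15. Over all tested genes the medians were 0.04 and 0.02, and 0.04 and -0.07 log2.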

How the data were processed

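RNA of the 14 cultures was measured on Affymetrix mouse arrays from 100 ng each. The deposited values are log2 expression summaries per probe set, made by the authors with R 3.0.1 and RMA, per the submitters' processing notes; RMA corrects background and normalizes by quantiles, and the sources used here do not state its settings. All 14 arrays passed into the fits. Of 45101 probe sets, 34945 carried a single gene symbol in the platform annotation (34741 matched RefSeq by gene ID), 932 several and 9160 none, and 64 were controls. Each of 18193 genes was represented by its brightest probe set, and 12172 genes above the overall median of 7.52 log2 on at least 2 arrays were tested.

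Groups came from the labels, whose biological replicate numbers 1 and 2 are called experiments 1 and 2 here. The labels do not state what the arrays of 1 number share. limma 3.58.1 in R 4.3.3 fitted the 7 groups without a term for the experiment (7 residual degrees of freedom), and with it as a block in an alternative (6 residual degrees of freedom). P-values were adjusted by Benjamini-Hochberg over the 12172 genes at a threshold of 0.05. After removal of group means, arrays with the same number correlated with r from 0.745 to 0.876 for all 6 pairs of groups, so the numbers pair the arrays. With 2 arrays per group, standard errors rest on the spread pooled by the model. Script steps across genes were tested on simulated data.

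The gene lists, the genes named and the comparison itself were chosen with earlier results of these data known. Genes named by the rule are those past 0.5 log2 in both experiments, the 2 members of each list with the largest interaction in size, genes of dendritic cell activation and cathepsins, and genes called for TNF in DMSO; other list members named in the text were chosen after their values were seen. Promoter sequences are from RefSeq (GRCm38.p6). Alternatives covered the block, the 8 arrays alone, the filter, the probe set rule, scaling, the prior and leaving out each array. List genes without a named probe set were not analysed here.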

Additional observations from a re-analysis of the deposited data

Results flagged for a closer look

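In 10 of the 79 genes named by the rule, the TNF response was above 0 in both experiments after CA074Me and below 0 in both in DMSO. The share of all tested genes with this pattern was not counted, so the count is only a description. The difference itself was tested as the interaction, and for all 10 the limma adjusted p was 1.00 with or without the block. Egln3 had the largest interaction, 0.75 log2, followed by Ahnak with 0.70, Cxcl5 with 0.65, Marf1 with 0.59, Pfkl with 0.57 and Macf1 with 0.52. Atf3, a stress-induced transcription factor, had 0.43 log2, Ciita, the class II transactivator, 0.28, and the proteases Ctsd and Ctsb 0.20 and 0.13. All but Ctsb were chosen by the size of the interaction, over all genes or within a list, so their values are no independent evidence. List members outside the rule, among them Hk1, have the same pattern.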

How the results depend on the processing

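The interaction held 0 calls under each of 26 alternatives, so its count says little about stability. With the replicate block, 1355 genes were called for TNF after CA074Me (605 higher and 750 lower), 379 for TNF in DMSO and 1 for CA074Me under TNF. With the 8 arrays alone and the block these counts were 2995, 1732 and 1, and with the 8 arrays alone and no block TNF in DMSO had 0 calls by limma (1364 at an unadjusted p under 0.05). Leaving out 1 array gave 5 to 109 calls for TNF after CA074Me (235 to 1018 with the block) and 0 to 11 for TNF in DMSO (0 to 307 with the block). Cyclic loess and scaling to reference genes each gave 23 calls for TNF in DMSO, and that scaling gave 195 for TNF after CA074Me, 159 higher and 36 lower. The causes were not tested. The count of 12 genes past 0.5 log2 in both experiments was 7 when probe sets were averaged per gene, and 0 at a limit of 1 log2. Under cyclic loess 10 genes above 0 and 2 below passed. That scaling also lowered the list medians, to 0.36 log2 from 0.41 for glycolysis and hypoxia and to 0.26 from 0.31 for cholesterol synthesis. For NF-kB subunits and IkB proteins it gave 0.21 instead of 0.26, and for lysosomal genes 0.02 instead of 0.06. The median over all tested genes went to 0.004 from 0.03. Among the 79 genes named by the rule, leaving out 1 array without the block turned the sign of the interaction in 4 to 12, at most 1 of them among the 12. Of the 21 gene lists, 9 kept a median above 0 in every fit that left out 1 array, with or without the block, and 12 did not. The 2 arrays per group are a limit of all these results.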

Other observations

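Type I interferon genes, which act against viruses, had an interaction above 0 in both experiments for 13 of 25 members and below 0 in both for 0. Rsad2 and Ifit1, which encode the antiviral proteins viperin and IFIT1, had 0.28 and 0.53, and 0.20 and 0.55 log2 in experiments 1 and 2. Of the 25 members, 16 were lowest on the CA074Me unstimulated array in both experiments, beside 1538 of all 12172 genes. With or without the block, 0 were called in either TNF response. Over all tested genes without the block, 0.887% were called higher and 0.419% lower after CA074Me, and 0.0822% and 0.0329% in DMSO. With it these shares were 4.97% and 6.16%, and 1.14% and 1.97%.

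Some genes outside the lists were chosen after their values were seen. Ankrd37 and P4ha1, both known to be raised by hypoxia, had an interaction of 0.95 and 0.43 log2, and of 0.74 and 0.30. Ak4, an adenylate kinase of mitochondria, had 1.11 and 0.27, and the cytokine Mif 0.56 and 0.21. On the negative side Pik3cd, the delta catalytic subunit of phosphoinositide 3-kinase, had -0.57 and -0.41. Among the 3034 probe sets that were bright enough and carried no single gene name, 22 were past 0.5 log2 in both experiments, and all 22 were above 0.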
